A study of Mus musculus with 6 samples.

Results

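The Rab family of small GTPases was examined in RNA-seq of haematopoietic stem and progenitor cells that had been sorted from mouse bone marrow. Members were the rows named Rab, a number and at most a letter and a digit, with a summed raw count of at least 60 over the 6 libraries. Of 18491 genes in the deposited table, 54 had such a name and 53 passed that minimum. Rab39b, with a summed count of 28, fell just outside it, and Rab39, with 74, just inside it. By the rule, 9 members were endocytic (Rab4, Rab5, Rab7 and Rab11), 8 secretory (Rab1, Rab2, Rab6 and Rab8), 4 granule-associated (Rab27, Rab37 and Rab44) and 32 other. The test kept 51 members; Rab25 and Rab30 were too low.

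The KO group held 3 libraries that the sample descriptions call KO, and the WT group 3 libraries that they call WT. The series' design text gives a Robo1 knockout made with Mx1-cre and 3 doses of poly (I:C), whereas the titles name shRNAs (shROBO1 and shCtrl), the genotype field a ROBO1 knockdown or WT, and the treatment field ROBO1, ROBO2 or ROBO3 knockdown or a scramble shRNA. These labels conflict, and the groups follow the descriptions. Both groups are labelled as sorted 8 months after poly (I:C). As background, Mx1-cre is switched on by interferon and acts in blood cells, liver and other tissues, so such a deletion is not limited to stem cells. The sources used here give neither strain nor age, nor do they say that libraries came from separate animals, so the p-values measure the spread between these libraries only. Robo1 was not analysed here, so the labels were not checked against the targeted gene.

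Library totals ran from 42235077 to 57058267 counts in KO and from 44578916 to 58106099 in WT. Cell type markers, listed with earlier results of these data known, were read beside the Rab genes. All 5 genes of the granulocyte-monocyte progenitor granule list were called higher in KO, and their summed level was 260303 to 276058 CPM (counts scaled to library size) in KO against 84249 to 94315 in WT. The eosinophil, basophil and mast cell list summed to 42326 to 48009 CPM in KO against 5842 to 7000 in WT, with 4 of 8 genes called higher. These 4 were positive also with library totals (0.07 to 1.81), and Cma1 was at 0 in some library. For late neutrophil genes the sum was 8348 to 8665 CPM in KO against 2336 to 2712 in WT, with 4 of 6 genes called higher. Of these 4, S100a8 and S100a9 were positive with library totals (0.72 and 0.18), and Ngp and Retnlg negative (-0.76 and -0.37). Of 11 stem and progenitor markers 1 was called higher and 3 lower, and their summed level was 187.5 to 198.5 CPM in KO and 184.8 to 191.9 in WT. With library totals as the only scaling, all 11 had negative log2 fold changes, from -1.97 (Hlf) to -0.05 (Slamf1). The median of all genes was then -1.22, and 70.7% of all genes were called lower. Slamf1, Ly6a, Kit, Gata2, Myb and Cd34 lay above that median, and the other stem and progenitor markers below it. The erythroid list summed to 2924 to 3520 CPM in KO against 906 to 1192 in WT, with 2 of 6 genes called higher (Hbb-bs and Hba-a1, positive also with total counts) and 1 lower. Megakaryocyte genes summed to 167.5 to 187.6 CPM in KO and 147.1 to 156.7 in WT (1 of 5 higher, 1 lower), and macrophage genes to 109.6 to 115.7 and 112.6 to 118.1 (1 of 6 higher, 1 lower). B cell genes summed to 73.8 to 82.3 CPM in KO and 92.3 to 111.8 in WT (3 of 6 called lower), and T and NK cell genes to 7.03 to 8.81 and 12.3 to 13.6 (1 of 4 called lower). The endothelial list summed to 9.78 to 12.6 CPM in KO and 13.4 to 13.8 in WT, and its 2 tested genes, Pecam1 and Kdr, had edgeR adjusted p-values of 0.180 and 0.883. Cd4, Pax5, Ms4a1, C1qa, Cav1 and Kdr were at 0 in some library. In bulk samples, fewer cells of a type and less RNA per cell cannot be told apart, and the part of cell composition in the Rab results was not tested.

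Rab proteins are molecular switches of vesicle traffic. Exchange factors load them with GTP and place them on a membrane, where they recruit effectors such as tethers and motors, and GTPase-activating proteins switch them off. Lipid groups attached to cysteines at the C terminus anchor them, and GDP dissociation inhibitors draw them back to the cytosol. In myeloid cells, Rab proteins direct receptor uptake and recycling, export from the endoplasmic reticulum and Golgi, and the release of secretory granules.

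The cysteine codons at the end of the reading frame are the feature that these genes share for membrane anchoring, and they show how alike the paralogs are. The last 45 coding bases, stop codon included, are printed 5′ to 3′ from the GENCODE vM21 transcripts of GRCm38, with cysteine codons near the end in capitals. Among the endocytic members the ends were as follows.
Rab4a: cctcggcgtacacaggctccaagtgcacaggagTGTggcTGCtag
Rab4b: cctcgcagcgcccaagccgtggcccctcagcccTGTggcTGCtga
Rab5a: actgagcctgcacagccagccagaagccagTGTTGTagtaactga
Rab5b: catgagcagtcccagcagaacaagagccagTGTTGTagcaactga
Rab5c: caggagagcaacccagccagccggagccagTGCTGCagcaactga
Rab7: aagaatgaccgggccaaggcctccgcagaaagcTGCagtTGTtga
Rab7b: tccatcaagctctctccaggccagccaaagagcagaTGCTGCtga
Rab11a: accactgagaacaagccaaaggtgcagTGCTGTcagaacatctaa
Rab11b: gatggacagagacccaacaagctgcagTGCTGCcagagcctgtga
The secretory members ended as follows.
Rab1a: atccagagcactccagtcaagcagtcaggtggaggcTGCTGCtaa
Rab1b: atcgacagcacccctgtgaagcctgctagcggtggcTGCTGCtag
Rab2a: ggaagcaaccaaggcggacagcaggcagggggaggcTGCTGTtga
Rab2b: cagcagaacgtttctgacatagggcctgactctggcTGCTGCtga
Rab6a: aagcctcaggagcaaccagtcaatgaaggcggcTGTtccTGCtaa
Rab6b: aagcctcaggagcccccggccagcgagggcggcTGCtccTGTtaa
Rab8a: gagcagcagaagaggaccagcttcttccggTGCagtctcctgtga
Rab8b: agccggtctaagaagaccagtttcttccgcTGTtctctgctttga
The granule-associated members other than Rab27b ended as follows.
Rab27a: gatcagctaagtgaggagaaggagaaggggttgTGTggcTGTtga
Rab37: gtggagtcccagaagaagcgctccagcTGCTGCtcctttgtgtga
Rab44: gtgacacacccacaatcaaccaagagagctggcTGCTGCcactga
Over 51 members with such an end, 29 had adjacent cysteine codons, 14 had 1 codon between them and 8 had a single one among the last 5 coding codons. Rab8a and Rab8b are of the single kind. Over the whole reading frame, paralogs of the role groups shared 64.5% (Rab7 and Rab7b) to 79.3% (Rab8a and Rab8b) of aligned bases. The longest stretch of identical bases between any pair was 38, between Rab1a and Rab1b.

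Levels between genes were compared with the authors' length-scaled values, taken as FPKM (fragments scaled by gene length and library size). The highest mean in both groups was that of Rab1b, which starts traffic from the endoplasmic reticulum to the Golgi, at 73.5 ± 0.951 FPKM in KO and 116.7 ± 3.08 in WT (SD, n = 3 each). Rab11a of recycling endosomes followed in KO with 42.7 ± 1.94 FPKM and was below Rab7 in WT with 72.2 ± 10.5. Rab7 of late endosomes and lysosomes had 39.2 ± 2.89 FPKM in KO and 97.6 ± 16.6 in WT, and the ranges of Rab7 and Rab11a overlapped in each group. Rab4b, a rapid recycling Rab, and Rab8a, which acts in Golgi to surface traffic, came next, at 18.9 ± 0.722 and 20.9 ± 1.11 FPKM in KO and at 59.2 ± 3.07 and 48.7 ± 2.52 in WT. At the other end, Rab6b, Rab39 and Rab36 had means of at most 0.115 FPKM in either group.

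The whole family took up a smaller part of the KO libraries. Summed over the 53 members the level was 347.9 ± 4.29 FPKM in KO and 705.5 ± 39.6 in WT, and the groups did not overlap. As a share of all counts, members held 0.0994% to 0.103% in KO and 0.195% to 0.215% in WT. In FPKM, 46 of 53 members (86.8%) were lower in all KO libraries than in any WT library, as were 64.9% of all 18491 genes. No member was higher in all KO libraries in FPKM, as 4.35% of all genes were. Within the family's summed FPKM, the secretory members held 33.5 ± 0.907% in KO and 29.1 ± 0.698% in WT, without overlap. Endocytic members held 38.9 ± 1.13% in KO and 41.1 ± 0.921% in WT, also without overlap, and granule members 7.42 ± 0.194% and 7.7 ± 0.493%, with overlap. As a share of the family's counts the endocytic groups overlapped, at 34.8% to 35.5% in KO and 35.1% to 36.2% in WT, while the secretory groups did not, at 34.1% to 35.0% and 31.6% to 32.6%.

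Fold changes depend on how libraries are scaled. With trimmed-mean (TMM) scaling, whose factors were 0.6603 to 0.6853 in KO and 1.436 to 1.517 in WT, the median log2 fold change of all genes, KO over WT, was -0.09, and with total counts as the only scaling it was -1.22. All CPM, above and below, are TMM-scaled. With TMM the family's summed level was 1504.7 ± 13 CPM in KO and 1381.1 ± 30.4 in WT, the opposite order to the share of all counts.

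Under TMM, 8 of 51 tested members were called higher in KO and 12 lower, at an adjusted p under 0.05 by edgeR's quasi-likelihood test with Benjamini-Hochberg adjustment over 15474 genes. Of all genes 31.7% were called, 17.2% higher and 14.4% lower, against 39.2% of members, 15.7% higher and 23.5% lower. The median log2 fold change of the members was -0.14. Members whose libraries did not overlap numbered 11 higher (22.2% of all genes) and 16 lower (24.4% of all genes). With total counts edgeR called 0 members higher, also at an unadjusted p under 0.05, and 43 lower, beside 4.24% and 70.7% of all genes, while DESeq2 with its own size factors called 8 higher. With each library's trend on exon length and GC content removed, 11 members (21.6%) were called higher and 9 (17.6%) lower, beside 20.8% and 8.97% of all genes. All 8 members called higher under TMM had negative values with total counts, from -0.89 to -0.24, and 7 of them were then called lower. Set against the median gene of that scaling, the same 8 stood 0.34 to 0.99 above it, and the 12 called lower stood 0.32 to 3.87 below it on the log2 scale. The change of scaling shifts all genes by nearly the same amount. These positions therefore follow from the TMM calls and are no separate support for them. In the authors' deposited table, 8 members had a positive and 10 a negative log2 fold change at an adjusted p under 0.05, and 5 carried its class DOWN.

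**Figure D1:**
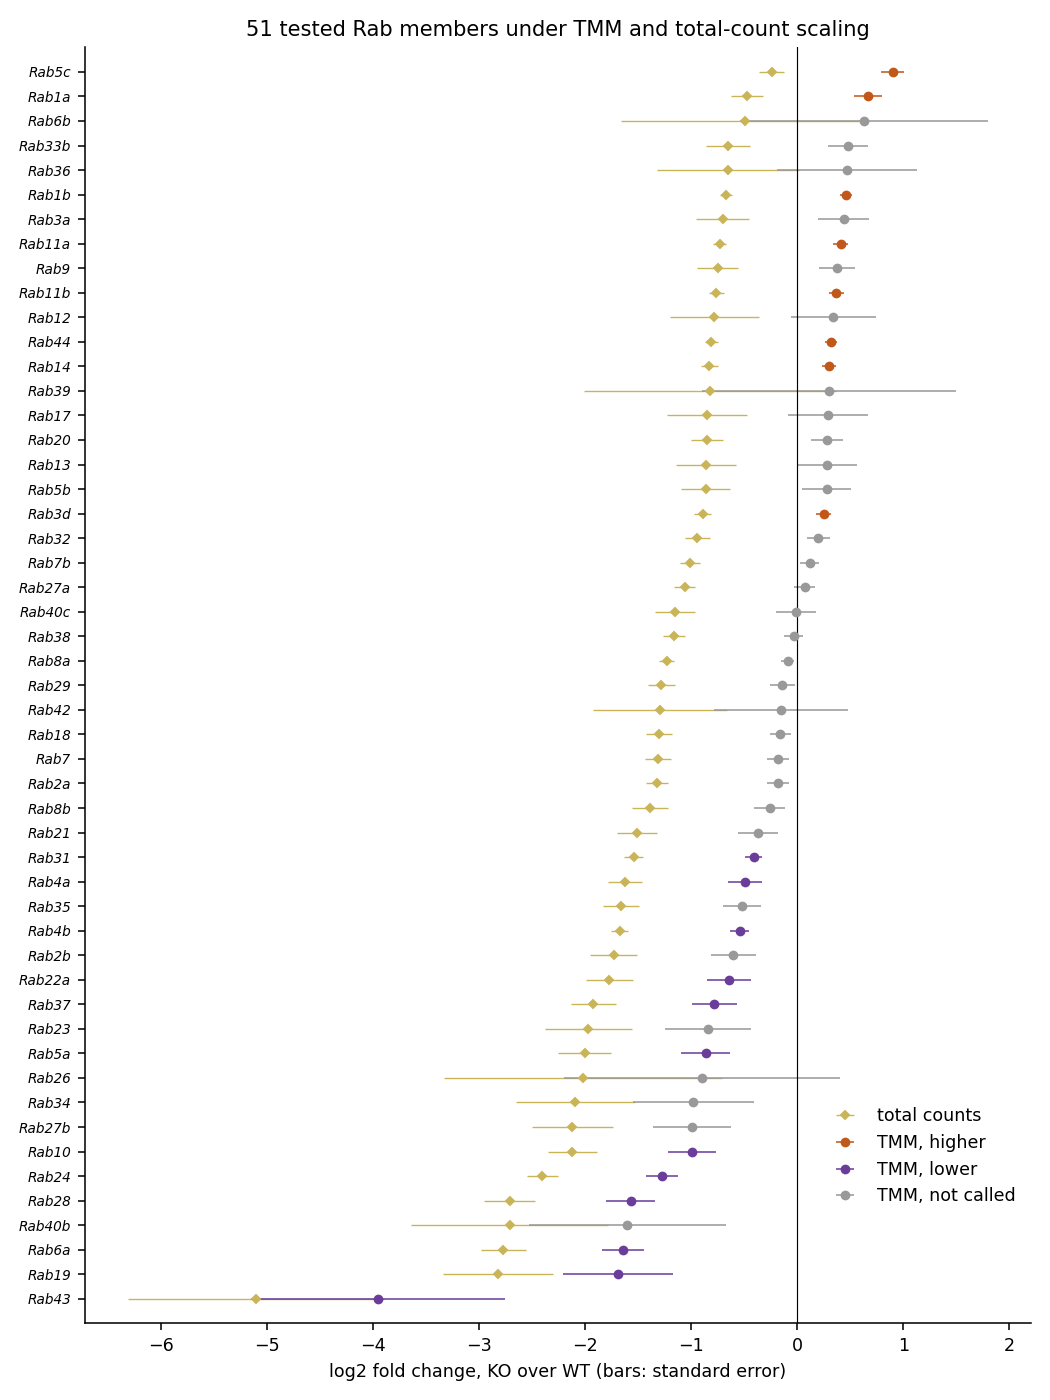
Log2 fold change, KO over WT, of the tested Rab genes with TMM scaling and with total counts (points, with bars of 1 standard error), ordered by the TMM value. The 8 genes called higher with TMM lie right of 0 with that scaling and left of 0 with total counts, whereas the 12 called lower lie left of 0 with both.

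Among the 9 endocytic members, 3 were called higher and 3 lower in KO under TMM, beside 17.2% and 14.4% of all genes. With total counts 0 were called higher and 8 lower, beside 4.24% and 70.7% of all genes. Early endosomes depend on the Rab5 paralogs, which drive fusion of incoming vesicles. Rab5c (chr11:100715009-100738215, minus strand, mm10) had 28.5, 30.4 and 24.2 CPM in KO, against 14.8, 15.9 and 13.8 CPM in WT. Every KO library was above every WT library, and Rab5c rose 1.86-fold under TMM (log2 0.90 ± 0.11 SE, edgeR adjusted p = 2.15e-04), with a value of -0.24 with total counts. Its paralog Rab5a (chr17:53479234-53507680, plus strand) had 1.86, 2.01 and 2.33 CPM in KO, against 2.76, 4.02 and 4.43 CPM in WT. Here every KO library was below every WT library, and Rab5a fell with log2 -0.86 ± 0.23 SE (edgeR adjusted p = 0.0203; -2.0 with total counts). That call was lost with the length and GC correction (log2 -0.64) and when KO 1, KO 2, WT 2 or WT 3 was left out (-0.71 to -0.84). Rab5b averaged 5.15 ± 1.66 CPM in KO and 4.25 ± 0.226 in WT (SD, n = 3 each), with overlapping libraries and an edgeR adjusted p of 0.403.

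Recycling endosomes carry receptors back to the surface. Rab11a had 159.3, 152.8 and 156.8 CPM in KO, against 122.4, 121.0 and 110.7 CPM in WT. Rab11b had 112.5, 103.3 and 106.4 CPM in KO, against 85.0, 84.5 and 79.1 CPM in WT. In both paralogs all KO libraries were above all WT libraries, and both rose under TMM by similar amounts, Rab11a by log2 0.41 ± 0.07 SE (edgeR adjusted p = 0.00133) and Rab11b by log2 0.37 ± 0.07 SE (edgeR adjusted p = 0.00265), with values of -0.73 and -0.76 with total counts. Their mean levels were 50 CPM or more, where 58% of all genes were called higher under TMM, with a median log2 fold change of 0.37. The rapid recycling paralogs went the other way from Rab11a and Rab11b. Rab4b had 42.8, 38.4 and 39.0 CPM in KO, against 63.6, 57.8 and 53.3 CPM in WT, and fell with log2 -0.54 ± 0.09 SE (edgeR adjusted p = 0.00153). Of its exon bases 65% also belong to the readthrough gene Gm21983 on the same strand, so the 2 could not be separated. Rab4a had 7.27, 7.57 and 6.27 CPM in KO, against 11.8, 9.71 and 8.21 CPM in WT, and fell with log2 -0.49 ± 0.16 SE (edgeR adjusted p = 0.0431). This call was lost with RLE size factors (log2 -0.46), with DESeq2 (-0.47) and in 5 of 6 fits that left out a library.

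Late endosomes and lysosomes are served by Rab7 and Rab7b, and neither was called under TMM. Rab7 had 139.2, 149.4 and 158.7 CPM in KO, against 142.5, 183.4 and 179.9 CPM in WT (log2 -0.18 ± 0.10 SE, edgeR adjusted p = 0.230). WT 1 lay within the KO range, and without it Rab7 was called lower (log2 -0.27). Rab7b had 35.9, 34.0 and 30.4 CPM in KO, against 32.4, 30.9 and 29.0 CPM in WT, with overlap (edgeR adjusted p = 0.369), and was called higher with the length and GC correction (log2 0.30).

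**Figure D2:**
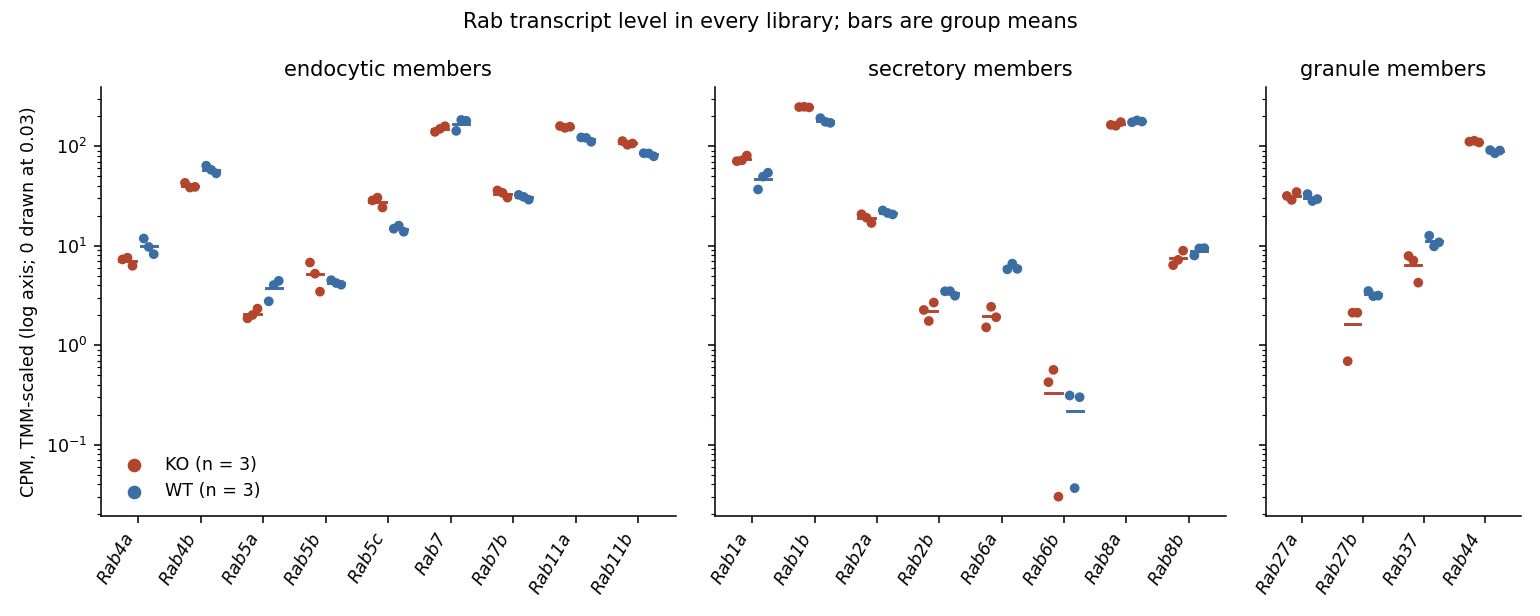
TMM-scaled level (CPM, log axis) of the 21 endocytic, secretory and granule-associated Rab genes in each library, KO left of WT within each gene. Points are libraries, bars are group means and 0 is drawn at 0.03; Rab5c sits at 24.2 to 30.4 CPM in KO against 13.8 to 15.9 in WT, and Rab5a at 1.86 to 2.33 against 2.76 to 4.43, whereas with total counts both have negative log2 fold changes.

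Of the 8 secretory members, 2 were called higher and 1 lower in KO under TMM, beside 17.2% and 14.4% of all genes. With total counts 0 were called higher and 7 lower, beside 4.24% and 70.7% of all genes. Rab1a and Rab1b, which act between the endoplasmic reticulum and the Golgi, were the pair called higher. Rab1b (chr19:5099205-5107072, minus strand) had 247.1, 248.9 and 245.1 CPM in KO, against 191.5, 175.7 and 171.5 CPM in WT. Rab1a (chr11:20201432-20226856, plus strand) had 70.7, 72 and 80.5 CPM in KO, against 36.7, 49.4 and 54.1 CPM in WT. The groups did not overlap in either gene. Both have mean levels of 50 CPM or more, where 58% of all genes were called higher under TMM, with a median log2 fold change of 0.37. Rab1a rose by log2 0.67 ± 0.13 SE (edgeR adjusted p = 0.00460) and Rab1b by log2 0.46 ± 0.06 SE (edgeR adjusted p = 5.13e-04) under TMM, and had values of -0.47 and -0.67 with total counts.

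Rab6a, which acts in traffic back through the Golgi, was the secretory member called lower. It had 1.51, 2.43 and 1.91 CPM in KO, against 5.78, 6.60 and 5.84 CPM in WT. Every KO library was below every WT library, and Rab6a fell to 0.321 of the WT level (log2 -1.64 ± 0.20 SE, edgeR adjusted p = 2.53e-04; -2.77 with total counts). Of its exon bases 19% overlap Mrpl48 on the opposite strand, and the labels do not say if the counting used strand. Its paralog Rab6b, better known from neurons, was near the detection limit at 0.330 ± 0.294 CPM in KO and 0.216 ± 0.156 in WT (SD, n = 3 each).

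Rab8a, the main Rab8 paralog here, had 163.8, 160.4 and 174.5 CPM in KO, against 173.9, 181.6 and 176.8 CPM in WT, with an edgeR adjusted p of 0.299. Rab2a and Rab2b, of Golgi traffic, had log2 values of -0.18 and -0.60 under TMM (edgeR adjusted p = 0.206 and 0.0610). Rab2b libraries did not overlap, at 1.75 to 2.68 CPM in KO against 3.14 to 3.49 in WT, and it was called lower without KO 3 (log2 -0.75). Of its exon bases 59.3% overlap Gm43766 on the opposite strand. Rab8b had log2 -0.26 (edgeR adjusted p = 0.248), with overlap.

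The granule-associated members did not move as one: 1 of 4 was called higher, 1 lower and 2 neither under TMM, and all 4 were called lower with total counts. Of all genes 17.2% were called higher and 14.4% lower under TMM, and 70.7% lower with total counts. Rab44, a large atypical Rab of mast cell granules whose reading frame has 2922 bases, was the most abundant of these 4 members. It had 111.0, 113.4 and 108.9 CPM in KO, against 91.3, 84.9 and 90.4 CPM in WT. Rab44 rose by log2 0.32 ± 0.06 SE under TMM with an edgeR adjusted p of 0.00441 and without overlap, and was at -0.81 with total counts. Of all genes at 50 CPM or more, as Rab44 is, 58% were called higher under TMM, with a median log2 fold change of 0.37. Rab37, a granule Rab of mast cells and neutrophils, had 7.88, 7.09 and 4.25 CPM in KO, against 12.6, 9.84 and 10.8 CPM in WT. Rab37 fell with log2 -0.78 ± 0.21 SE (edgeR adjusted p = 0.0209; -1.92 with total counts). The groups did not overlap, but without WT 1 (log2 -0.67) or WT 3 (-0.79) the call was lost and 0 granule members were called lower.

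Rab27a, which docks granules at the surface membrane, had 31.6, 28.8 and 34.6 CPM in KO, against 33.0, 28.1 and 29.4 CPM in WT. The groups overlapped and the edgeR adjusted p was 0.654. Rab27b had 0.690, 2.12 and 2.12 CPM in KO, against 3.50, 3.11 and 3.15 CPM in WT. All KO libraries were below all WT libraries, yet with log2 -0.99 ± 0.37 SE the edgeR adjusted p was 0.0699. Beside these 4 genes, the most abundant granule protein genes of the lists above were higher in KO. Mpo averaged 149546 ± 4268 CPM in KO and 49728 ± 2056 in WT, and Prg2 39672 ± 2838 and 5154 ± 595 (SD, n = 3 each). Both were called higher, with positive values also with total counts (log2 0.46 and 1.81). Other granule genes of those lists were not called, among them Camp at 94.2 ± 2.99 CPM in KO and 108.1 ± 13.3 in WT, and Cpa3 at 65 ± 10.1 and 52.5 ± 3.75 (SD, n = 3 each). Whether the Rab values follow from the mixture of cells in the sort was not tested.

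Shares within a set of paralogs do not depend on the scaling between libraries. Of the 9 sets, the largest difference was in Rab5, where Rab5c made up 82.7%, 86.4% and 85.3% of the summed FPKM in KO, against 75.1%, 72.4% and 68.6% in WT. Rab5a held 5.11 ± 1.3% in KO and 14.5 ± 3.25% in WT, and Rab5b 10.1 ± 2.61% and 13.4 ± 0.447% (SD, n = 3 each). The Rab5c share was thus 12.8 points higher in KO without overlap, but 3 against 3 libraries cannot go below p = 0.1 in a two-sided exact permutation test, and p was 0.1 (0.45 adjusted over the 9 sets). From raw counts the difference was 14.4 points. Rab27a held 96.5 ± 2.56% of its pair in KO and 92.2 ± 0.66% in WT, again without overlap and with p = 0.1 by the exact permutation test (0.45 adjusted). From raw counts its mean share was 95.1% in KO and 90.3% in WT. Rab27b had only 26, 75 and 61 counts in KO, and the ratio of its FPKM to its counts varied 2.31-fold over libraries. In the other 7 sets p was 0.2 to 0.9 by that test. The Rab11 pair was nearly level, with Rab11a at 76.5 ± 3.55% in KO and 75.7 ± 6.12% in WT, and in Rab4 the share of Rab4b was 87.0 ± 1.25% and 87.3 ± 1.17%.

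**Figure D3:**
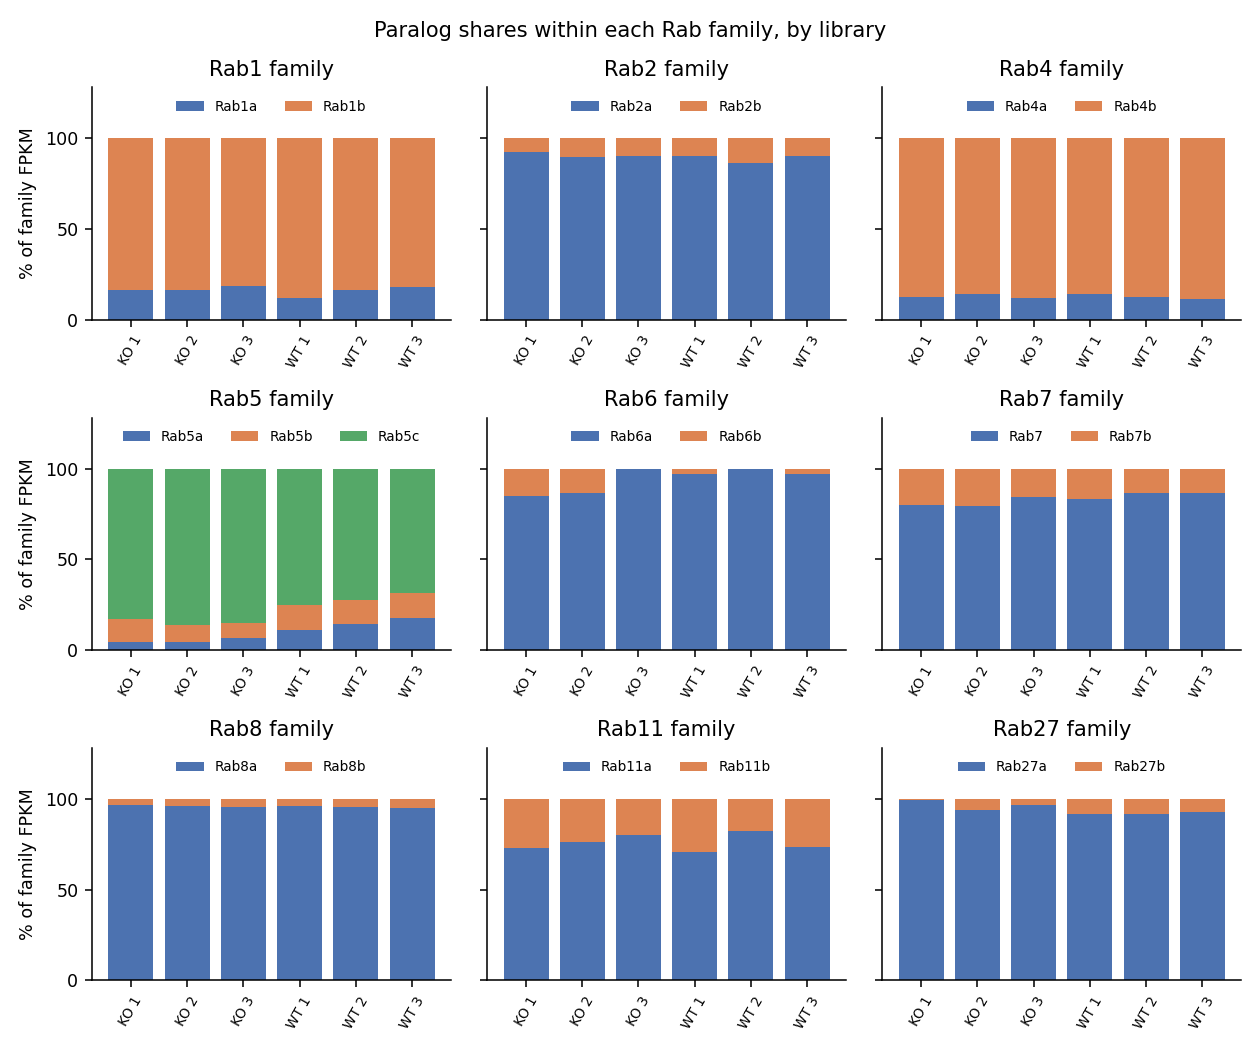
Share of each set's summed FPKM held by each of its paralogs (stacked bars, percent) in each library, KO left of WT. Rab5c takes 82.7% to 86.4% in KO against 68.6% to 75.1% in WT, and the Rab11a and Rab4b shares overlap between groups.

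Because Rab5c and Rab5a went opposite ways under TMM, their promoters are shown, from 250 bases before to 50 after the gene start (RefSeq, GRCm38.p6). Rab5c lies at chr11:100738166-100738465 on the minus strand and Rab5a at chr17:53478984-53479283 on the plus strand, both printed 5′ to 3′ with matches to the searched motifs in capitals.
Rab5c: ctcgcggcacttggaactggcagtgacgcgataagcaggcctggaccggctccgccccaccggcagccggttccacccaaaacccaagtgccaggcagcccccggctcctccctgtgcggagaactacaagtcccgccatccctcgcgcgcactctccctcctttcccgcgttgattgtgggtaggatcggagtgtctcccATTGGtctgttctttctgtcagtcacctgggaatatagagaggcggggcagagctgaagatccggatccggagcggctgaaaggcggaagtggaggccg
Rab5a: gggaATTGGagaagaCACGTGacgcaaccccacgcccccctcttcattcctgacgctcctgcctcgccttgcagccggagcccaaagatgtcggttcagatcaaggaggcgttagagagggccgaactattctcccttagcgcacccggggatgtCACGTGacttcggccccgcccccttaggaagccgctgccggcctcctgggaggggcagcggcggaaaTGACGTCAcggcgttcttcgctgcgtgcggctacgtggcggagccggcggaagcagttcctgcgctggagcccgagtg
The search covered 6 short motifs on both strands: CACGTG (E-box), CCGGAAG (ETS), GAGGAAG (PU.1-type ETS), AGATAA (a site of GATA factors), TGACGTCA (the cyclic AMP response element) and CCAAT (the box of that name). The Rab5c window held 1 match, CCAAT read on the other strand. The Rab5a window held 4: 1 CCAAT match on the other strand, a pair of CACGTG and 1 TGACGTCA. Of 27025 promoters of this length, 7.24% hold CACGTG, 1.88% TGACGTCA and 37.9% CCAAT. Among the 42 members matched in the table, 5 held CACGTG, 2 TGACGTCA, 21 CCAAT, 5 CCGGAAG (9.12% of all promoters), 8 GAGGAAG (13.5%) and 1 AGATAA (11.4%). These are letter matches, not shown to be bound.

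Of the 30 other members tested, 2 (6.67%) were called higher and 7 (23.3%) lower under TMM, beside 17.2% and 14.4% of all genes. Rab14, which acts between the Golgi and endosomes, had 75.4, 74.6 and 78.3 CPM in KO, against 60, 64.7 and 60.6 CPM in WT. Rab3d, a Rab of regulated secretion, had 46.3, 46.4 and 44.9 CPM in KO, against 38.6, 38.8 and 38.6 CPM in WT. Neither overlapped; Rab14 rose by log2 0.30 ± 0.07 SE (edgeR adjusted p = 0.00891) and Rab3d by log2 0.25 ± 0.07 SE (edgeR adjusted p = 0.0238) under TMM, with values of -0.83 and -0.89 with total counts. Rab3d lost its call without KO 1, KO 2, WT 2 or WT 3, at log2 0.24 to 0.26.

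Rab28, a Rab known from cilia and photoreceptors, had 1.67, 1.24 and 1.60 CPM in KO, against 3.50, 5.32 and 4.61 CPM in WT. Rab24, linked to autophagy, had 3.88, 3.76 and 2.96 CPM in KO, against 8.42, 8.32 and 8.85 CPM in WT. Both fell without overlap, Rab28 with log2 -1.57 ± 0.23 SE (edgeR adjusted p = 7.66e-04) and Rab24 with log2 -1.27 ± 0.15 SE (edgeR adjusted p = 1.78e-04). Rab24 shares 62.4% of its exon bases with Prelid1 on the opposite strand, which averaged 348.7 ± 43.9 CPM in KO and 114.2 ± 4.92 in WT (SD, n = 3 each), so their reads cannot be told apart if strand was not used.

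Rab10, of surface and endoplasmic reticulum traffic, had 3.80, 2.37 and 4.21 CPM in KO, against 6.90, 7.85 and 5.77 CPM in WT (log2 -0.99 ± 0.23 SE, edgeR adjusted p = 0.00920). Rab31, of Golgi to endosome traffic, had 35.6, 36.4 and 35.5 CPM in KO, against 45.6, 50.4 and 46.6 CPM in WT (log2 -0.41 ± 0.08 SE, edgeR adjusted p = 0.00285), and lost its call with the length and GC correction (-0.19). Rab19 had 0.133, 0.509 and 0.452 CPM in KO, against 0.906, 1.39 and 1.21 CPM in WT (log2 -1.69 ± 0.52 SE, edgeR adjusted p = 0.0352), and lost its call without KO 1, WT 1, WT 2 or WT 3. All 3 were lower in every KO library. Rab22a of endosomes was also called lower, at log2 -0.64 (edgeR adjusted p = 0.0492), but the call was lost with RLE (-0.61), with DESeq2 (-0.62), with the replicate block (-0.65), with the length and GC correction (-0.39) and in all 6 fits that left out a library (-0.74 to -0.48).

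Rab43, of Golgi traffic, was called lower with the largest fold, but 1 library went against its group. It had 0.319, 0.141 and 0.348 CPM in KO, against 0.0625, 5.82 and 6.49 CPM in WT. In counts, the WT libraries held 4, 477 and 562, so WT 1 was below all KO libraries. Its log2 of -3.95 ± 1.2 SE had an edgeR adjusted p of 0.0328, and the call was lost in 5 of 6 fits that left out a library, all but the one without WT 1. Of its exon bases 75.4% belong also to the readthrough gene Gm45140 on the same strand. The ratio of its FPKM to its counts varied 8.66-fold over libraries, and 7 of 53 members had such a spread over 1.5-fold.

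Members called higher had mean levels of 21.3 to 213.3 CPM (median 82.0), and members called lower 0.767 to 49.2 CPM (median 4.58). At 50 CPM or more, 6 of 8 members were called higher and 0 lower (edgeR, 0 also at an unadjusted p under 0.05 and by DESeq2), where 58% of all genes were called higher and 11.9% lower. These 6 were Rab1a, Rab1b, Rab11a, Rab11b, Rab14 and Rab44. From 1 to 10 CPM, 0 of 22 members were called higher (edgeR, 1 at an unadjusted p under 0.05, 0 by DESeq2) and 9 lower, where 10.9% of all genes were called higher and 15.1% lower. From 10 to 50 CPM, 2 of 11 members were called higher and 2 lower, where 21.4% of all genes were called higher and 26.8% lower, and under 1 CPM 1 of 10 members was called lower, where 3.2% and 4.02% were. The share of all genes called higher was thus larger at each step in level, while the share called lower was highest from 10 to 50 CPM. The median log2 fold change at 50 CPM or more was 0.35 for members and 0.37 for all genes, and from 1 to 10 CPM it was -0.51 for members and -0.18 for all genes. With total counts the members called higher all had negative values.

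**Figure D4:**
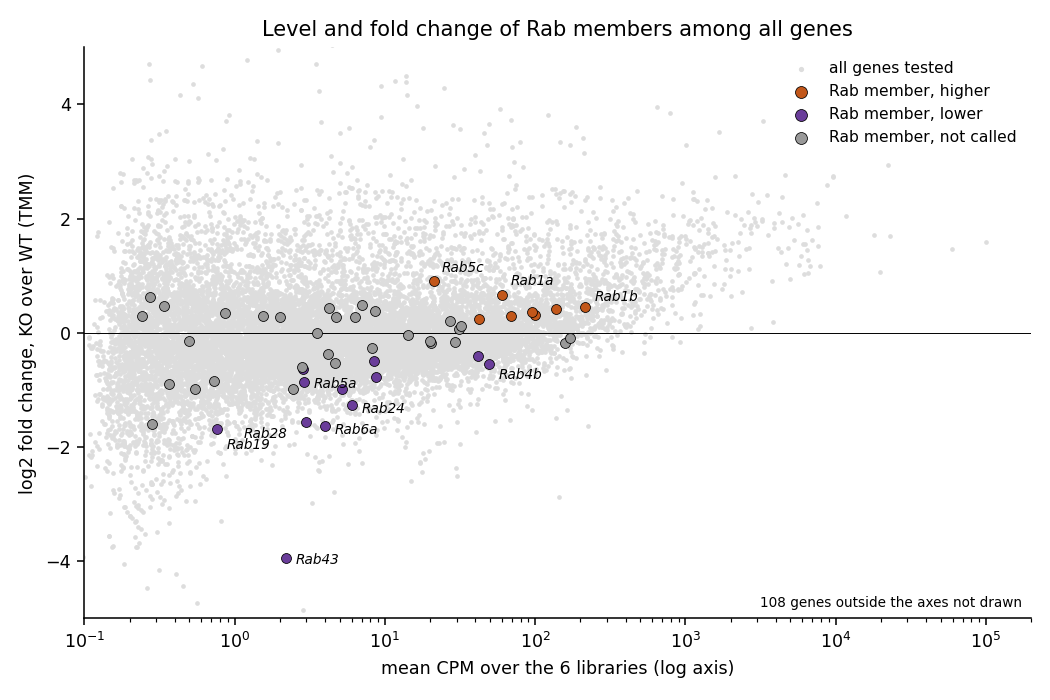
Mean level (CPM, log axis) against log2 fold change, KO over WT, with TMM scaling, for all genes tested (grey) and Rab genes (coloured by call). Rab genes called higher lie at 21.3 to 213.3 CPM and those called lower at 0.767 to 49.2 CPM; with total counts all of those called higher have negative values, and 108 genes outside the axes are not drawn.

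The genes that load, unload and answer Rab proteins were read from 6 lists. Of 146 tested, 13 were called higher and 33 lower in KO under TMM, 8.9% and 22.6% beside the 17.2% and 14.4% of all genes, with a median log2 fold change of -0.17. With total counts edgeR called 0 higher (0 also at an unadjusted p under 0.05) and 132 lower (90.4%), beside 4.24% and 70.7% of all genes. DESeq2 with its own size factors called 13 higher. With the length and GC correction the counts were 17 and 10 (11.6% and 6.85%), beside 20.8% and 8.97% of all genes. The counts of each list below are read beside the same shares of all genes.

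Of 8 genes for prenylation and recycling, 2 were called higher and 1 lower. Rabac1, which helps release Rab proteins from their GDP dissociation inhibitor, had 192.1, 169.7 and 151.4 CPM in KO, against 79.5, 81.4 and 80.2 CPM in WT. It rose by log2 1.09 ± 0.09 SE under TMM (edgeR adjusted p = 1.42e-05), with -0.05 with total counts. Gdi2, such an inhibitor, averaged 91.8 ± 1.23 CPM in KO and 64.2 ± 11.5 in WT (SD, n = 3 each), and rose by log2 0.52 under TMM with -0.62 with total counts. Rabac1 and Gdi2 are both at 50 CPM or more, where 58% of all genes were called higher under TMM. Rabggtb, the beta subunit of the enzyme that adds lipid to the cysteines printed above, fell with log2 -0.33 (edgeR adjusted p = 0.0295), a call lost with the length and GC correction (-0.04).

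Exchange factors gave 5 of 46 called higher and 9 lower. Dennd5b, of the DENN domain family, had 29.9, 32.0 and 30.8 CPM in KO, against 13, 12.4 and 15.9 CPM in WT, and rose by log2 1.16 ± 0.11 SE under TMM (edgeR adjusted p = 3.90e-05), with 0.03 with total counts, where it was not called. Trappc5, a subunit of the TRAPP complexes that activate Rab1, rose by log2 0.35 under TMM with -0.78 with total counts. Dennd2d and Sbf1 fell, with log2 -0.84 and -0.69. No GTPase-activating protein was called higher by edgeR among 37 (1 at an unadjusted p under 0.05, 0 by DESeq2), and 9 were called lower. With the length and GC correction 1 of these proteins was called higher and 3 lower (2.7% and 8.11%, beside 20.8% and 8.97% of all genes). Of the exchange factors 6 were then called higher and 4 lower. Among the proteins called lower under TMM, Tbc1d10c had 76.3, 76.6 and 79.7 CPM in KO, against 107.6, 104.1 and 107.1 CPM in WT (log2 -0.45 ± 0.06 SE, edgeR adjusted p = 4.74e-04), and Tbck fell with log2 -0.72.

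Endocytic effectors gave 1 of 23 called higher and 7 lower. Rabep1, a Rab5 effector, had 4.41, 3.64 and 3.41 CPM in KO, against 7.61, 10.5 and 8.09 CPM in WT, and fell with log2 -1.19 ± 0.18 SE (edgeR adjusted p = 7.59e-04). Vps39, of the tether that works with Rab7, fell with log2 -0.68, while Vps18, of the same tether, rose by log2 0.75 under TMM (-0.39 with total counts) with overlapping libraries and an edgeR adjusted p of 0.0495, a call lost without the filter (0.73), with the replicate block (0.74) and without KO 1, KO 3, WT 1 or WT 3 (0.57 to 0.77). Secretory effectors gave 1 of 23 called higher and 6 lower, with the exocyst subunits Exoc7 and Exoc3 lower at log2 -0.69 and -0.34, and Exoc3 lost its call with the length and GC correction (-0.11). That correction left 2 endocytic effectors called higher and 2 lower, and 1 secretory effector higher and 1 lower. Gorasp2, a Golgi stacking protein, rose by log2 0.18 under TMM (-0.95 with total counts, edgeR adjusted p = 0.0422), and lost its call without the filter on low counts (0.16), with the replicate block (0.18) and in 5 of 6 fits that left out a library (0.17 to 0.22), all but the one without WT 1.

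Granule effectors were the one list with a positive median under TMM, 0.42, with 4 of 9 called higher and 1 lower, and with total counts its median was -0.72. Of 15 genes in this list, 12 had deposited counts and 9 were tested, so its values cover those 9 only. With the length and GC correction its median was 0.61, with 4 called higher and 0 lower, where the median of all genes was 0.07. Prenylation and recycling (0.17), exchange factors (0.03) and endocytic effectors (0.02) then had positive medians too. Stxbp2, which works with syntaxin in granule release, had 240.6, 251.8 and 239.9 CPM in KO, against 177.0, 158.8 and 165.6 CPM in WT, and Vamp8, a granule SNARE, 780.4, 825.0 and 844.4 CPM in KO, against 630.5, 610.9 and 593.5 CPM in WT. Neither overlapped, and under TMM they rose by log2 0.55 and 0.42 (edgeR adjusted p = 1.85e-04 and 4.93e-04), with values of -0.59 and -0.72 with total counts. Both lie at 50 CPM or more, where 58% of all genes were called higher under TMM with a median log2 fold change of 0.37. The SNARE Snap23 fell with log2 -0.59 (edgeR adjusted p = 0.00702), and lost its call with the length and GC correction (-0.30). Mpo and Prg2, given above, were higher in KO with both scalings. The median of this list was positive under TMM, with and without the length and GC correction, and negative with total counts. The part of Mpo and Prg2 in these values was not tested.

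**Figure D5:**
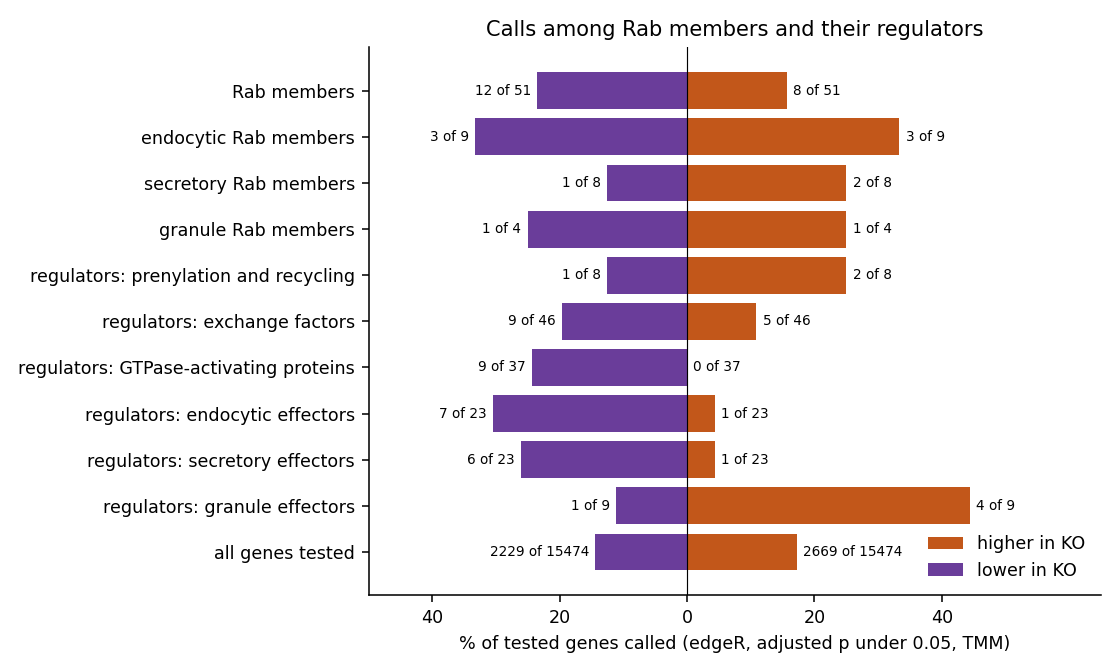
Genes called higher (bars to the right) and lower (bars to the left) in KO under TMM, as percent of those tested, for the Rab genes and their roles, the 6 lists of Rab regulators and effectors, and all genes. Granule effectors have 44.4% called higher and 11.1% lower, GTPase-activating proteins 0% and 24.3%, and all genes 17.2% and 14.4%. With the length and GC correction the GTPase-activating proteins have 2.7% and 8.11%, and all genes 20.8% and 8.97%. With total counts no Rab gene or regulator is called higher.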

How the data were processed

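RNA-seq was analysed from 3 KO and 3 WT libraries of mouse haematopoietic stem and progenitor cells. The authors deposited raw counts per gene, length-scaled values, and their own DESeq2 comparison with log2 fold changes, p-values, a mean signal and a test score per gene. Per the submitters' processing notes, the build was mm10 and the tools included featureCounts 2.0.1, HISAT2 2.2.1, DESeq2 1.32.0 and fastp 0.22.0. The length-scaled values have no unit in the header. They were taken as FPKM since 98.69% to 98.95% of the deposited values of 758 to 761 single-transcript genes were, to within 1%, proportional to an FPKM worked out here from counts and exon length. Annotation was GENCODE vM21, which matched 18470 of 18491 IDs and all 53 members.

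Counts were fitted with edgeR 4.0.16 (filterByExpr, TMM, glmQLFit and glmQLFTest, two-sided, group as the only term), leaving 15474 genes, with Benjamini-Hochberg adjustment over all of them and a threshold of 0.05. DESeq2 1.42.0, RLE, total counts, no filter, a length and GC offset, a replicate block and each library left out were alternatives. Paralog shares were compared by exact permutation. On simulated data for 14720 genes, the fit called 29.9%, 73.1% and 100% of genes changed 1.5-, 2- and 4-fold, and 8.78% of its calls were false. Only 66 or 67 genes were changed at each fold, balanced up and down, whereas 31.7% of genes were called in the data. These rates therefore do not cover errors from the scaling between libraries. Replicates differed beyond counting noise (chi-square per degree of freedom 14 to 40.3), so all were kept apart.

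The members and lists were chosen with earlier results of these data known. All role members are named; of the others, up to 5 called in each direction with the smallest p and no overlap, and from each regulator list up to 2 in each direction. Rab22a and Rab43 were named after their values were seen.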

Additional observations from a re-analysis of the deposited data

How the results depend on the processing

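The scaling between libraries decided the direction of the calls above 0. With total counts the genes called higher and lower were 656 and 10936 of all genes, 0 and 43 of Rab members (endocytic 0 and 8, secretory 0 and 7, granule 0 and 4), and 0 and 132 of the regulators. Every one of the 22 tested members with a positive log2 fold change under TMM had a negative one with total counts. Among named genes called under at least 1 of the scalings, the value turned negative with total counts for Rab5b (-0.86), Rab5c (-0.24), Rab7b (-1.01), Rab11a (-0.73), Rab11b (-0.76), Rab27a (-1.06), Rab44 (-0.81), Rab1a (-0.47), Rab1b (-0.67), Rab14 (-0.83), Rab3d (-0.89), Rabac1 (-0.05), Gdi2 (-0.62), Trappc5 (-0.78), Vps18 (-0.39), Gorasp2 (-0.95), Stxbp2 (-0.59) and Vamp8 (-0.72). The length and GC correction gave 3221 genes called higher and 1387 lower, and 17 regulators called higher and 10 lower. RLE, DESeq2 and the unfiltered fit moved no count of calls by over 1.5 times.

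Leaving out 1 library gave 2226 to 2542 genes called higher and 1356 to 2142 lower. For Rab members it gave 7 to 9 higher and 7 to 11 lower, with 7 lower without KO 1, WT 2 or WT 3. Endocytic members called lower numbered 1 to 3 (1 without KO 1, KO 2 or WT 2), secretory 1 to 2 (2 without KO 3) and granule 0 to 1. Regulators called numbered 8 to 11 higher and 12 to 27 lower. The Rab5c share differed by 11.1 to 14.3 points. Depth limits Rab36, Rab39 and Rab6b, which had few counts in every library. The cause of these changes was not tested.

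Pairing by replicate number was not evident: deviations of same-numbered libraries correlated at r = 0.0419, -0.0044 and 0.047. KO 2 correlated best with WT 3 (0.0282) and WT 2 with KO 1 (0.0294), while the other libraries correlated best with their own number. With 3 libraries a group, these values cannot exclude a pairing. With the replicate block, 8 Rab members were called higher and 10 lower (2467 and 1906 of all genes), and Rab43 (-3.15), Rab22a (-0.65), Rabggtb, Vps18 and Gorasp2 lost their calls. The paired Rab5c share differed by 12.8 points (sign-flip exact permutation p = 0.25, the smallest that 3 pairs allow).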
